A study of Mus musculus with 9 samples.

Results

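The Siglec family of mouse immune cells was followed in CD11b+ and CD11b- B cells of the BM after LPS and in peritoneal macrophages (PMs). Its 7 members, Cd22, Siglecg, Cd33, Siglece, Siglec1, Siglecf and Siglech, were taken by gene name from the 55322 genes of the deposited FPKM table, and each name matched 1 gene. FPKM is the number of reads on a gene relative to its exon length and to all reads on genes in the library, so levels of different genes can be set side by side. The mice were wild type (C57BL/6), and their age was not given in the labels. LPS (5 mg/kg), a glycolipid of Gram-negative bacteria, was injected, and 48 h later CD11b- and CD11b+ B cells were taken from the marrow by cell sorting, with 3 libraries of each kind. The marrow had first been depleted of cells carrying CD3, CD4, CD8, Gr-1, NK1.1 or TER119. The other 3 libraries came from CD11b+F4/80+ PMs of untreated mice, so cell type, tissue and treatment differ together between PMs and either kind of B cell and cannot be told apart. Nothing in the labels says that libraries of a group came from separate animals, so p-values measure only the spread between these samples.

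Siglecs are cell surface lectins of the immunoglobulin superfamily that bind sialic acid, the sugar at the tips of many glycans. Most of them carry inhibitory motifs (ITIMs) in the cytoplasmic tail, which are phosphorylated by kinases such as Lyn and then bind phosphatases such as SHP-1, the product of Ptpn6. CD22 and Siglec-G dampen signals of the B cell receptor. CD33 and Siglec-E are found on myeloid cells, sialoadhesin (Siglec1) on macrophages, Siglec-F on eosinophils and alveolar macrophages, and Siglec-H on plasmacytoid dendritic cells (pDCs), where it signals through the adaptor encoded by Tyrobp.

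In GENCODE M21 (GRCm38), 6 of the 7 members lie on chromosome 7 and Siglec1 lies on chromosome 2 (chr2:131069220-131086765, minus strand). Siglecf (chr7:43351341-43359531, plus strand), Siglecg (chr7:43408204-43418358, plus strand), Cd33 (chr7:43524216-43544428, minus strand) and Siglece (chr7:43651070-43660161, minus strand) follow each other in 1 cluster. Cd22 (chr7:30865402-30880342, minus strand) and Siglech (chr7:55768178-55778925, plus strand) lie apart from it. Siglecg, which was abundant in B cells, thus lies beside Cd33 and Siglece, which were highest in PMs. RefSeq promoters (GRCm38.p6) were at hand for 6 members. The sequences just upstream of the first RefSeq start of the B cell members Cd22 and Siglecg and of the myeloid members Cd33 and Siglece are printed here, as 4 of the 5 members called between B cells and PMs. The other called member is Siglec1. Each lies within 250 bases of that start, is written 5′ to 3′ on the strand of the gene, and leaves out bases that are exonic in GENCODE M21. Capitals mark matches on either strand to GAGGAA, the core of PU.1 sites, or to CCCNNGGG, the core of EBF sites. They are chr7:30879029-30879176 for Cd22 (minus strand), chr7:43407989-43408203 for Siglecg (plus strand), chr7:43533172-43533364 for Cd33 (minus strand) and chr7:43660162-43660411 for Siglece (minus strand). Those of Cd22 and Cd33 lie within longer annotated transcripts of the same gene.
Cd22: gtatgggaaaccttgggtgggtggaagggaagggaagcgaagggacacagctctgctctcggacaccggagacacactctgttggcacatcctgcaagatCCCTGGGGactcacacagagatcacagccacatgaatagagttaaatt
Siglecg: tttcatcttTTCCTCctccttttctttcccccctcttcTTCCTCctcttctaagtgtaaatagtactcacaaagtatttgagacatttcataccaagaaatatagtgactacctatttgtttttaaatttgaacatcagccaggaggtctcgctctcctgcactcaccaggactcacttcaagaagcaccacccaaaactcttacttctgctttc
Cd33: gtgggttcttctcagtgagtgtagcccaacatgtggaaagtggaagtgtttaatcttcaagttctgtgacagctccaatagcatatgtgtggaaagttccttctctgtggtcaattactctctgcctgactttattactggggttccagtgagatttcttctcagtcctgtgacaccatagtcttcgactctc
Siglece: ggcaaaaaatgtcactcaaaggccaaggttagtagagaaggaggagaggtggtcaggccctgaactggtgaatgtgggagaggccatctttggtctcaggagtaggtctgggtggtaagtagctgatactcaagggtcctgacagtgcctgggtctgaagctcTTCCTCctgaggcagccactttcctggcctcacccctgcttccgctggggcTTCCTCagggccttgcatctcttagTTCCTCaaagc

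PU.1 is a factor of myeloid and B cells, and EBF is a factor of B cells. Over the full 250 bases before the start, Siglece held 3 matches to GAGGAA, beginning 87, 36 and 11 bases upstream. Siglecg held 2 of them, 241 and 212 bases upstream of its first start, and Cd33 held 1, 226 bases upstream and within an annotated exon, so that it is not in the sequence above. Cd22 held none and had 1 match to CCCNNGGG, 48 bases upstream. Among all 32851 RefSeq promoters, 23.3% held GAGGAA and 11.8% held CCCNNGGG within the same length. The octamer ATGCAAAT, which 1.6% of promoters held, was in none of the 6 members. These letters describe the windows only.

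The libraries held between 18014658 and 35251215 reads on genes. The markers matched the labels. The summed FPKM of 12 B cell markers was 7849 to 8404 in the CD11b- libraries, 6282 to 7279 in the CD11b+ libraries and 190 to 264 in PMs, and that of 10 peritoneal macrophage markers was 2134 to 2631 in PMs, 66.3 to 82.8 in the CD11b- and 73.3 to 90.1 in the CD11b+ libraries. In B cells most of the macrophage sum was Icam2, at 60.6 ± 8.30 FPKM in CD11b+ and 68.7 ± 7.60 in CD11b- B cells (SD, n = 3 each). Of the 9 macrophage markers tested between the kinds of B cell, 8 had a higher mean in CD11b+ B cells, 5 of them at an unadjusted p under 0.05 and none at an adjusted one, beside 4.65% and 0.0689% of all genes tested. Cd68 was at 10.4 FPKM in CD11b+ and 3.82 in CD11b- B cells by means, Timd4 at 0.679 and 0.256, Adgre1 at 2.94 and 0.776 and Marco at 3.64 and 0.402. The neutrophil list stood apart further. Its 10 markers summed to 638, 1536 and 215 FPKM in libraries 1, 2 and 3, against 1.75 to 2.97 in CD11b- B cells and 4.26 to 21.2 in PMs. All 10 were read in libraries 1 and 2 and 9 in library 3, where Mpo was at 0, and 6 to 8 were read in each CD11b- library, where Ly6g was at 0 in libraries 1 and 3. Of these 10 markers, S100a8 (232 against 0.852 FPKM by means), S100a9 (280.1 against 0.653) and Retnlg (14.2 against 0.0175) passed the test between CD11b+ and CD11b- B cells, and Ngp (166 against 0.355 FPKM by means) had an adjusted p of 0.0563. The part of these cells or transcripts in the results was not tested. T and NK cell markers summed to 2.83, 3.38 and 0.894 FPKM in CD11b+ libraries 1, 2 and 3 and to at most 3.80 FPKM in any library. Erythroid markers gave sums of 39.05, 39.09 and 27.6 FPKM in the CD11b+ and 1.40 to 21.2 FPKM in the CD11b- libraries. The leading genes of the other marker lists did not pass the test between the kinds of B cell. By mean FPKM in CD11b+ and CD11b- B cells these were Cd79a (2051 and 2434) and Cd79b (1508 and 2020) for B cells, Ms4a4c (114 and 95.2), Ly6c2 (33.7 and 15.7) and F13a1 (0.476 and 0.0481) for monocytes, and Hba-a1 (17.6 and 5.74), Hbb-bs (16.5 and 4.15) and Alas2 (0.697 and 0.229) for erythroid cells. For pDCs they were Ly6d (2802 and 3498), Bst2 (63.2 and 41.9) and Irf8 (100.7 and 125), for eosinophils Alox15 (4.48 and 3.70), Ear2 (1.76 and 0) and Il5ra (12.3 and 13.8), and for T and NK cells Nkg7 (1.73 and 0.0109), Klrb1c (0 and 0.513) and Cd3d (0.201 and 0.0559).

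Siglecg and Cd22 dominated the family in both kinds of B cell. Siglecg was at 423, 427 and 445 FPKM in CD11b- libraries 1, 2 and 3 and at 329, 381 and 360 FPKM in the CD11b+ libraries. Cd22 was at 205, 206 and 211 FPKM in CD11b- and at 182, 203 and 203 FPKM in CD11b+ B cells. The remaining 5 members were below 3 FPKM in each of these 6 libraries. Siglecg, with 207941 reads over the CD11b- libraries, ranked 89 among all genes by mean FPKM there and 127 in CD11b+ B cells. Cd22 ranked 204 and 241. Together they made up 99.5% to 99.98% of the summed FPKM of the family in B cells.

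PMs had no such leading pair. Cd33 was at 8.08, 5.94 and 9.31 FPKM in PM libraries 1, 2 and 3, Siglecg at 9.40, 3.48 and 5.73, Siglece at 7.15, 3.30 and 6.08, and Siglec1 at 3.30, 5.27 and 3.30. The ranges of neighbouring genes in this order overlapped, while every value of Cd33 was above every value of Siglec1. Cd22 followed at 3.21, 1.51 and 1.65 FPKM, all below the lowest value of the other 4. Siglecf had 2 reads in PM library 1 and none in libraries 2 and 3. Siglech had no read in any PM library, and a count of 0 over the 3 libraries allows up to 0.0132 FPKM, for counting error only.

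**Figure D1:**
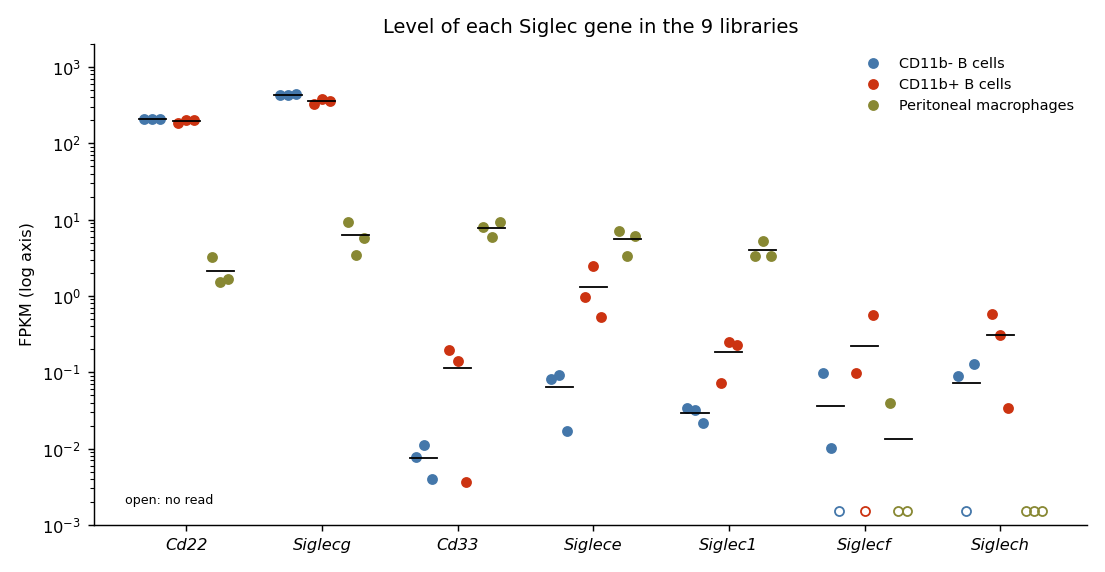
FPKM of each Siglec gene in every library on a log axis, with 3 points per group, the group mean as a bar and open points at the bottom for libraries with no read. Cd22 and Siglecg lie above 180 FPKM in all B cell libraries, whereas Cd33, Siglece and Siglec1 are highest in PMs.

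Below the leading pair, the B cell levels were low and their order was loose. In CD11b- B cells the mean FPKM was 0.0726 ± 0.0660 for Siglech, 0.0636 ± 0.0409 for Siglece, 0.0356 ± 0.0531 for Siglecf, 0.0292 ± 0.00639 for Siglec1 and 0.00760 ± 0.00353 for Cd33 (SD, n = 3 each). These means rest on 24, 12, 10, 21 and 6 reads over the 3 libraries. The ranges of neighbouring genes in this order overlapped, except that all 3 values of Cd33 were below all 3 of Siglec1. In CD11b+ B cells the order was Siglece (1.32 ± 1.02), Siglech (0.307 ± 0.275), Siglecf (0.222 ± 0.304), Siglec1 (0.183 ± 0.0966) and Cd33 (0.114 ± 0.0998), with overlapping ranges between neighbours (SD, n = 3 each).

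**Figure D2:**
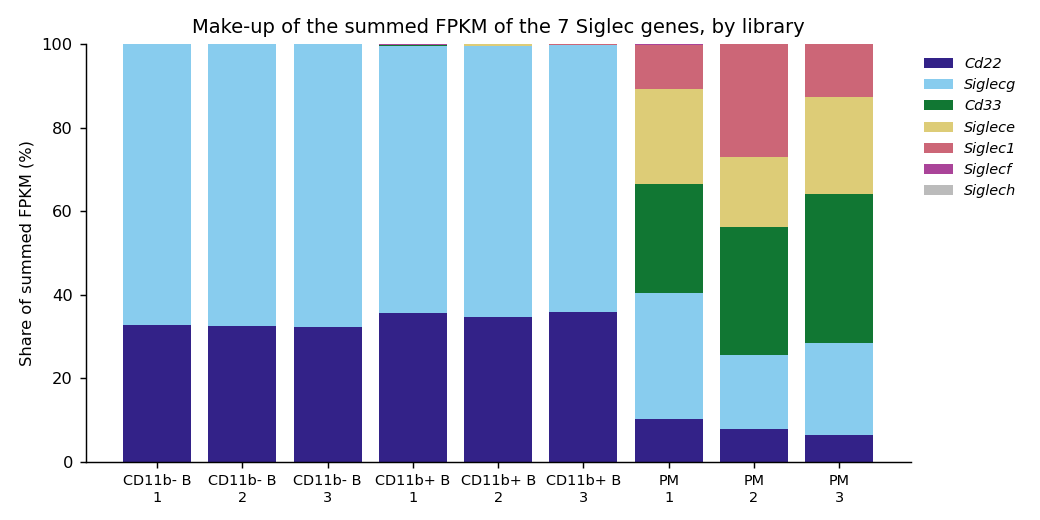
Share of the summed FPKM of the 7 Siglec genes that each gene made up, in percent, by library. Cd22 and Siglecg fill the bars of the 6 B cell libraries and 25.6% to 40.5% of the bars of the 3 PM libraries.

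The first comparison asked how CD11b+ B cells differed from CD11b- B cells of LPS-treated marrow. No member passed the test. By limma on log2(FPKM + 1), 15 of 21778 genes tested (0.0689%) were called higher in the CD11b+ libraries and none (0%) was called lower, at an adjusted p under 0.05. At an unadjusted p under 0.05 there were 1012 genes higher (4.65%) and 661 lower (3.04%). Of the 7 members, 1, Siglece, was among the former and none among the latter. The median difference was 0.20 over the members and 0.03 over all genes tested, on the log2(FPKM + 1) scale.

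Siglece, an inhibitory receptor of neutrophils, monocytes and macrophages, showed the widest gap. It was at 0.958, 2.48 and 0.537 FPKM in CD11b+ libraries 1, 2 and 3 and at 0.0810, 0.0930 and 0.0169 FPKM in the CD11b- libraries. Every CD11b+ value was above every CD11b- value, as was the case for 8.63% of genes tested. The mean was 20.8-fold higher, or 11.7-fold without CD11b+ library 2. The difference in log2(FPKM + 1) was 1.04 ± 0.30 (SE), with an adjusted p of 0.460 by limma. The scale understates changes of genes this low. On the whole reads (207 against 12 over the 3 libraries of each group), edgeR without a filter and DESeq2 called Siglece higher, with adjusted p = 0.00619 and 0.000401, beside 1.11% and 1.45% of all genes tested that they called higher. edgeR with its filter on low counts gave an adjusted p of 0.145. The call thus depended on the tool and on its filter. Siglece was highest in CD11b+ library 2 and lowest in library 3, and the summed neutrophil markers of these libraries had the same order, as had the T and NK cell and the erythroid markers given above. The monocyte markers had another order, with sums of 168, 136 and 163 FPKM in CD11b+ libraries 1, 2 and 3. The sums were 89.9 to 136 FPKM in CD11b- B cells. Ms4a4c gave most of them, at 133, 100.3 and 109 FPKM in CD11b+. All 8 had a higher mean log2 value in CD11b+ B cells, 3 of them at an unadjusted p under 0.05 (beside 4.65% of genes). None was called. Treml4 and Cd300e were at 0 in CD11b- B cells. Treml4 (0.699, 1.57 and 0.554 FPKM) had the order of Siglece in CD11b+ libraries, and Cd300e (0.326, 1.23 and 3.06) had not. The macrophage markers, at 73.3, 90.1 and 83.7 FPKM in CD11b+ libraries 1, 2 and 3, also had another order by sum. Most of that sum was Icam2 (51.3, 67.2 and 63.3 FPKM), which had a mean of 68.7 FPKM in CD11b- B cells. The order is thus mainly that of Icam2 and does not speak for the other macrophage markers. The sums of the B cell, pDC and eosinophil markers had other orders too. With 3 libraries, such an order carries no test. Fewer cells of a type and less RNA per cell cannot be told apart in these bulk samples.

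The other myeloid members were lower still. Siglec1, the macrophage lectin sialoadhesin, was at 0.0715, 0.246 and 0.230 FPKM in CD11b+ and at 0.0336, 0.0321 and 0.0218 FPKM in CD11b- B cells. These groups did not overlap, as was the case for 8.63% of genes tested in this direction, and the difference of 0.20 ± 0.11 had an adjusted p of 0.698. Cd33 was at 0.197 and 0.143 FPKM in CD11b+ libraries 1 and 2, with 45 and 29 reads, but at 0.00365 FPKM in library 3, with 1 read. The 3 CD11b- libraries held 2, 3 and 1 reads of Cd33. The groups therefore overlapped, and the difference of 0.14 ± 0.11 had an adjusted p of 0.727.

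Siglecg and Cd22 went the other way by small amounts. Siglecg was lower in all 3 CD11b+ libraries than in any CD11b- library, with a mean of 357 ± 26 against 432 ± 11.6 FPKM (SD, n = 3 each). Its difference was -0.28 ± 0.15 (95% interval -0.62 to 0.07, adjusted p = 0.687). Cd22 was also without overlap, at 196 ± 11.7 against 207 ± 3.33 FPKM (SD, n = 3 each), and its difference was -0.08 ± 0.13 (95% interval -0.38 to 0.21, adjusted p = 0.825). Non-overlap in this direction was found for 6.32% of genes tested. Of the 12 B cell markers, all but 2 also had a lower mean log2 value in CD11b+ B cells, with a median difference of -0.19 and none called, among them Cd79b (-0.42 ± 0.23, adjusted p = 0.688) and Ms4a1 (-0.43 ± 0.29, adjusted p = 0.727). The part of this shift in the values of Siglecg and Cd22 was not tested. The intervals of this fit leave room for a fall of Siglecg by 0.62 on the log2 scale and for a small rise. With quantile normalization the falls were larger, at -0.43 ± 0.14 for Siglecg and -0.16 ± 0.12 for Cd22. Neither was called by limma (adjusted p = 0.554 and 0.740). The ratio of Siglecg to Cd22 within a library, which does not depend on depth, was 2.06, 2.07 and 2.11 in CD11b- and 1.80, 1.88 and 1.78 in CD11b+ libraries. These ratios did not overlap either, and the exact two-sided permutation test gave p = 0.1, the smallest that 3 against 3 libraries allow.

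Siglecf and Siglech were read few times in some B cell libraries and not at all in others. Siglecf, the eosinophil member, had 8, 0 and 56 reads in CD11b+ libraries 1, 2 and 3 and 9, 1 and 0 reads in the CD11b- libraries, so that 1 library held most of its reads. The difference was 0.21 ± 0.18 (adjusted p = 0.727). The eosinophil markers Ear1 and Ear6 were at 0 in all 9 libraries, Epx was at most 0.147 FPKM, and the list of 9 summed to 22.8 to 36.3 FPKM in CD11b+ and 18.7 to 48.0 FPKM in CD11b- B cells. Of the 6 tested, 3 had a higher mean log2 value in CD11b+ B cells, 2 of them at an unadjusted p under 0.05 (beside 4.65% of all genes tested), and none was called. These 2 were Prg2 and Ear2. Prg2, which encodes the eosinophil major basic protein, was at 3.94, 3.60 and 13.7 FPKM in CD11b+ libraries 1, 2 and 3. In the CD11b- libraries Prg2 was at 0.286, 0 and 1.97 FPKM, with no overlap, beside 8.63% of genes tested. Prg2 was highest in the library that was highest in Siglecf. Ear2 was at 2.56, 2.66 and 0.0789 FPKM in the CD11b+ and at 0 in the CD11b- libraries. Prg3, however, was highest in CD11b- library 3 (31.1 FPKM against 7.38 in CD11b+ library 3), which had no read of Siglecf, and Epx and Ccr3 were highest in CD11b- library 2, which had 1. Siglech, the pDC member, had 58, 27 and 4 reads in CD11b+ and 10, 0 and 14 reads in CD11b- libraries, and the difference was 0.27 ± 0.17 (adjusted p = 0.727). The 10 pDC markers, of which Ly6d gave most of the sum, reached 2736 to 3131 FPKM in CD11b+ and 3379 to 3922 FPKM in CD11b- B cells. All 10 were read in each CD11b+ library, including Klk1, which was at 0.948, 2.55 and 0.948 FPKM there and at 0 in the other 6 libraries. Of the 10, 7 had a higher mean log2 value in CD11b+ B cells, 3 were higher and 1 lower at an unadjusted p under 0.05 (beside 4.65% and 3.04% of all genes tested), and none was called. The part of such cells in the values of Siglecf and Siglech was not tested.

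**Figure D3:**
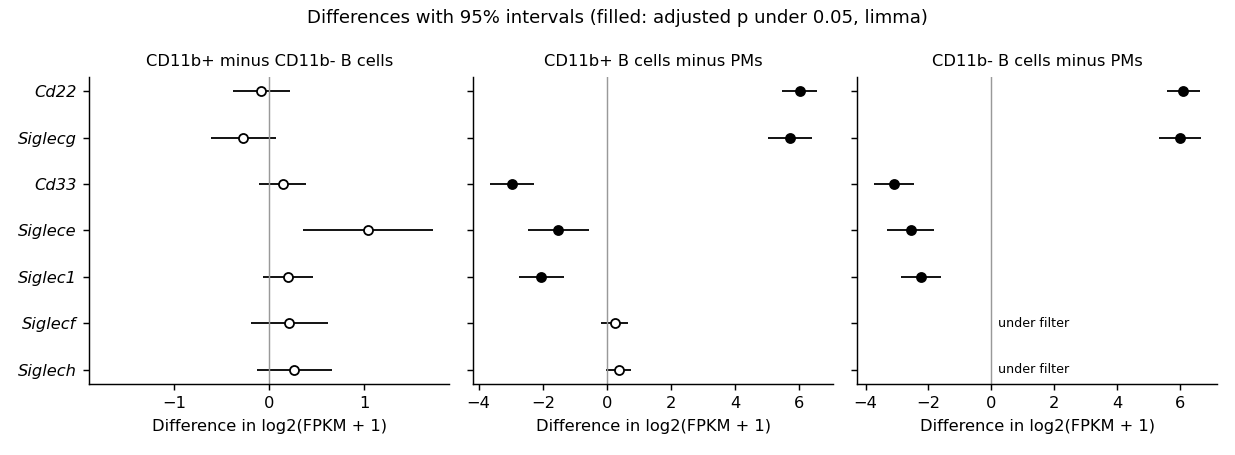
Difference in log2(FPKM + 1) of each Siglec gene in the 3 comparisons, with 95% intervals from limma (3 libraries per group, filled points for an adjusted p under 0.05). No gene is filled between CD11b+ and CD11b- B cells, and 5 are filled in each comparison with PMs.

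The second comparison set CD11b+ B cells against PMs, which served as the myeloid reference. Of the 7 members, all of which passed the filter, Cd22 and Siglecg were called higher and Siglec1, Cd33 and Siglece were called lower. Over all 22102 genes tested, 4760 (21.5%) were called higher and 1940 (8.78%) lower. With quantile normalization the split was 2706 higher and 2700 lower, and the same 5 members were called in the same directions. The median difference over all genes was 0.25 on the log2 scale in the main test and 0.06 after quantile normalization, so small differences should be read against that shift.

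Cd22 and Siglecg were far above their PM level. Cd22 was higher by 6.02 ± 0.24 on the log2 scale (adjusted p = 1.73e-06), or 92.1-fold by means, and Siglecg by 5.72 ± 0.30 (adjusted p = 6.10e-06), or 57.5-fold. All CD11b+ values of both genes were at least 180 FPKM and all PM values below 10 FPKM. In PM libraries 1, 2 and 3, Cd22 was at 1.55%, 0.730% and 0.796% of its mean in CD11b- B cells and Siglecg at 2.18%, 0.806% and 1.33%. The median of the 12 B cell markers stood at 1.86%, 0.879% and 0.852% of the same reference in these libraries. Both Siglec genes thus lay within the range of the B cell markers in PMs (0.401% to 72.0% in library 1), and whether B cells gave these reads was not tested.

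The 3 myeloid members were lower than in PMs. Cd33 was lower than in PMs by 2.96 ± 0.30 on the log2 scale (adjusted p = 0.000238), and its mean was 67.9-fold below that of PMs, or 106-fold without CD11b+ library 1. Siglec1 was lower by 2.05 ± 0.30 (adjusted p = 0.00177), at 4.62% of the PM mean. Siglece was lower by 1.52 ± 0.41 (adjusted p = 0.0256), at 24.0% of the PM mean, or 13.6% without CD11b+ library 2. This last call was lost (adjusted p = 0.0578 to 0.0927) without PM library 1 or 3 or CD11b+ library 1 or 3, whereas the direction stayed.

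The size of the Siglece signal can be read against macrophage transcripts in the same libraries. In CD11b+ libraries 1, 2 and 3, Siglece reached 17.4%, 45.0% and 9.75% of its PM mean. The 10 macrophage markers had medians of 1.2%, 1.15% and 0.853% of theirs. Siglece was above all 10 markers in libraries 1 and 2, in which the highest marker was at 8.22% and 10.8%, and in library 3 it was just below the highest, at 10.2%. Siglec1 was at 1.81%, 6.22% and 5.82%, above the marker median in each library and within the range of the markers. Cd33 was at 2.53% and 1.83% in libraries 1 and 2 and at 0.0469% in library 3, below the lowest macrophage marker there (0.115%). In CD11b- B cells the medians of the markers were 0.101% to 0.118%.

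**Figure D4:**
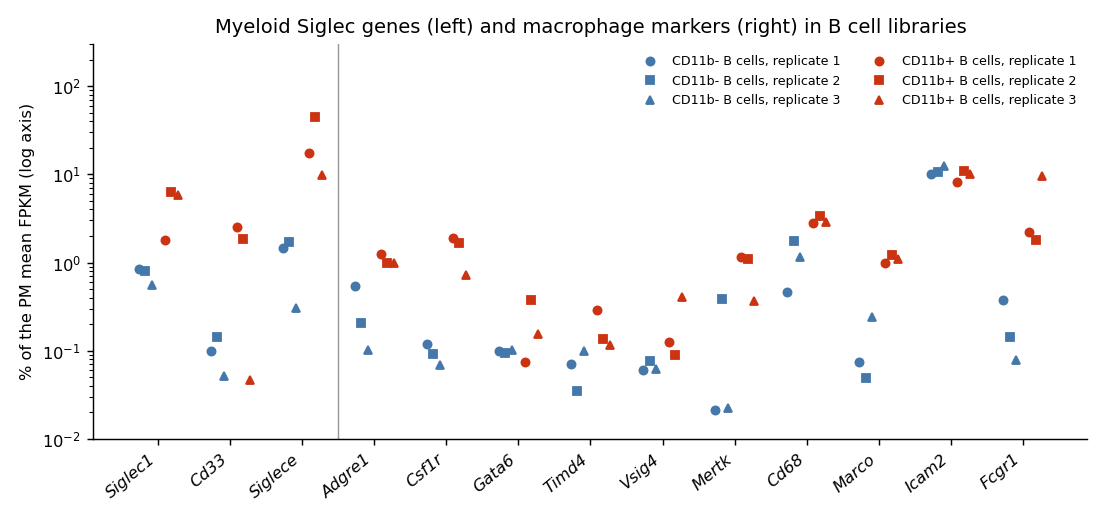
FPKM of Siglec1, Cd33 and Siglece (left of the line) and of 10 macrophage markers (right) in each B cell library as percent of the PM mean, on a log axis. Siglece of CD11b+ B cells lies at 9.75% to 45.0%, above the markers other than Icam2 in all 3 libraries.

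Siglecf and Siglech were not called against PMs. Siglecf was read 64 times in CD11b+ B cells and 2 times in PMs, and the ratio per depth was 23.8 with a 95% counting interval of 6.31 to 200. CD11b+ library 3 held 56 of the 64 reads, and without it the ratio was 4.85 with an interval of 0.969 to 46.9. With CD11b+ library 2 and PM libraries 2 and 3 all at 0, the groups overlapped, and the adjusted p was 0.347. Siglech, read in all 3 CD11b+ libraries and in no PM library, was at least 23.4-fold higher by means, against a floor of 3 reads over the PM libraries, or at least 12.9-fold without CD11b+ library 1, which held 58 of its 89 reads. The difference was 0.36 ± 0.17 (0.22 without that library), with an adjusted p of 0.154. edgeR without a filter and DESeq2 called Siglech higher here, beside 8.73% and 16.1% of the genes they tested.

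The third comparison, CD11b- B cells against PMs, shares its PM libraries with the second. Only 5 members passed the filter, since Siglecf (10 against 2 reads) and Siglech (24 against 0 reads) were below a mean of 0.05 FPKM. Cd22 (6.10 ± 0.22, adjusted p = 1.43e-06) and Siglecg (5.99 ± 0.29, adjusted p = 5.21e-06) were called higher, beside 25.8% of 20985 genes tested. Siglec1 (-2.24 ± 0.27, adjusted p = 0.000641), Cd33 (-3.10 ± 0.27, adjusted p = 0.000128) and Siglece (-2.56 ± 0.32, adjusted p = 0.000746) were called lower, beside 11% of genes tested. By means, PMs were 86.6-fold above CD11b- B cells in Siglece, 136-fold in Siglec1 and 1024-fold in Cd33.

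The genes whose pattern over the 9 libraries was most like that of a member were found by the root mean square difference (RMS) of centred log2(FPKM + 1), among 12493 genes with a mean of at least 1 FPKM. The values are a description and carry no test. For Cd22 they were Cd79b (RMS 0.145) and Cd79a (0.170), which encode the signalling chains of the B cell receptor, and the joining segment Igkj1 (0.172). For Siglecg they were Cd79b (0.172), Cd22 itself (0.184) and Igkj1 (0.189). Siglec1 was nearest to Mrpl33 (0.0470), Cd209c (0.0981) and Wtip (0.107), and Cd33 to Fscn1 (0.105), Colec12 (0.109) and Galnt9 (0.113). The nearest genes to Siglece were farther from it, namely the chemokine gene Ccl3 (0.270), Gpr160 (0.319) and Nr1h3 (0.325). Siglecf and Siglech spanned less than 1 on the log2 scale between group means, and no neighbour was sought.

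The genes that make, trim or carry sialic acid, the ligand of the family, did not pass the test between CD11b+ and CD11b- B cells. None of 6 genes of sialic acid synthesis, 13 sialyltransferases tested of 20, 3 sialidases or sialate esterases tested of 5 and 6 counter-receptors was called in either direction, beside 0.0689% of all genes tested that were called higher and 0% that were called lower. At an unadjusted p under 0.05, 1 sialyltransferase gene, St3gal3, was lower (-0.57 ± 0.23, adjusted p = 0.643) and 1 counter-receptor gene, Spn, was higher (0.57 ± 0.25, adjusted p = 0.650), beside 3.04% and 4.65% of all genes tested. Cmah, which converts sialic acid to the glycolyl form that mouse CD22 prefers, was at 24.2 ± 3.15 FPKM in CD11b+ and 24.2 ± 3.19 in CD11b- B cells (SD, n = 3 each; adjusted p = 0.999). St6gal1, which builds the linkage that CD22 binds, was at 41.0 ± 10.7 and 36.5 ± 9.92 FPKM (SD, n = 3 each; adjusted p = 0.807). Neu1, the lysosomal sialidase, was at 25.1 ± 3.01 and 30.7 ± 7.14 FPKM (SD, n = 3 each; adjusted p = 0.727), and Neu3, a sialidase of the plasma membrane, and the esterase gene Siae were at 1.07 and 1.41 FPKM in CD11b+ B cells by means (adjusted p = 0.834 and 0.693). Cd24a, whose product is a ligand of Siglec-G, was at 355 ± 69.1 and 384 ± 70.0 FPKM (SD, n = 3 each; adjusted p = 0.858). Cd52 (adjusted p = 0.801) and Ighm (adjusted p = 0.750), whose products are bound by Siglec-10, the human counterpart of Siglec-G, and by CD22, did not pass either.

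Against PMs the same lists divided. St3gal5, the synthase of the ganglioside GM3, was at 4.23 ± 0.849 FPKM in CD11b+ B cells and 140 ± 28.3 in PMs (SD, n = 3 each), a difference of -4.75 ± 0.22 (adjusted p = 3.48e-06). St3gal4 fell by 4.11 on the log2 scale (adjusted p = 3.23e-05), whereas St6gal1 rose by 0.73 (adjusted p = 0.0455). As given above, 21.5% of all genes tested were called higher and 8.78% lower in this comparison. Of the 13 sialyltransferases tested, 2 were higher in CD11b+ B cells and 4 were higher in PMs. Of the 6 genes of sialic acid synthesis, 3 were higher, including Cmah (0.99 ± 0.24, adjusted p = 0.0150), and 1, Nans, was lower (-0.87 ± 0.20, adjusted p = 0.0137). Slc35a1, the transporter of the activated sugar, differed by 0.89 ± 0.35 (adjusted p = 0.0971). Of the counter-receptors, 5 of 6 were higher, led by Ighm (6.40), Cd52 (2.66) and Cd24a (2.32), and 1 was lower. None of the 3 sialidases and esterases tested was called.

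The levels of 9 signalling partners of the inhibitory Siglecs ranged widely in B cells, from means of 3.79 FPKM for Socs3 to 826 for Ptpn6 in CD11b- B cells. Ptpn6 was at 888, 829 and 763 FPKM in CD11b- libraries 1, 2 and 3 and at 628, 716 and 460 FPKM in the CD11b+ libraries. All CD11b+ values were lower, as was the case for 6.32% of genes tested, and the difference was -0.48 ± 0.22 (adjusted p = 0.667). Lyn was at 110 ± 8.27 FPKM in CD11b+ and 133 ± 2.54 in CD11b- B cells (SD, n = 3 each; adjusted p = 0.672), and Csk, which restrains Lyn, at 100.1 ± 8.44 and 111 ± 9.53 (SD, n = 3 each; adjusted p = 0.727). None of the 9 effectors and kinases was called, beside 0.0689% of all genes tested that were called higher and 0% lower, and 1, Inpp5d, was lower at an unadjusted p under 0.05 (-0.41 ± 0.12, adjusted p = 0.499), beside 3.04%. Inpp5d encodes the inositol phosphatase SHIP-1. The median difference of the 9 was -0.23, against -0.19 over the 12 B cell markers and 0.03 over all genes. Against PMs, 5 of the 9 were higher in CD11b+ B cells and 1 lower, beside 21.5% and 8.78% of all genes tested, with Ptpn6 higher by 1.93 ± 0.23 (adjusted p = 0.000613).

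Among the 3 adaptors with activating motifs, of which Tyrobp encodes the partner of Siglec-H, Fcer1g rose in CD11b+ B cells. It was at 40.6, 53.9 and 35.5 FPKM in CD11b+ libraries 1, 2 and 3 and at 1.82, 2.03 and 1.28 FPKM in the CD11b- libraries. The groups were far apart, and the difference was 4.02 ± 0.21 (adjusted p = 0.00115). The call held in 19 of 20 alternatives. It was lost with a replicate block by the number in the sample descriptions, which leaves 2 shared numbers (difference 3.94, adjusted p = 0.656). Tyrobp was at 81.5 ± 11.0 FPKM in CD11b+ and 50.3 ± 10.5 in CD11b- B cells (SD, n = 3 each, adjusted p = 0.408). Hcst was at 26.3 ± 13.8 and 13.7 ± 4.88 (SD, n = 3 each, adjusted p = 0.675). Fcer1g and Tyrobp, but not Hcst, were higher at an unadjusted p under 0.05, beside 4.65% of all genes tested. Against PMs all 3 were called lower in CD11b+ B cells, beside 8.78% of all genes tested, with log2 differences of -5.08 for Fcer1g, -5.26 for Tyrobp and -2.01 for Hcst. Fcer1g is used by many myeloid receptors, and the part of the neutrophil transcripts in its rise was not tested.

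The other inhibitory receptors of B cells served to place CD22 and Siglec-G. None of the 11 was called between CD11b+ and CD11b- B cells, and 3 in each direction had an unadjusted p under 0.05, beside 4.65% of all genes tested that were higher and 3.04% that were lower at that limit. Cd72, a receptor that also recruits SHP-1, was at 192 ± 23.0 FPKM in CD11b+ and 320 ± 94.7 in CD11b- B cells (SD, n = 3 each; adjusted p = 0.507). Btla was at 155 ± 37.0 and 137 ± 27.7 FPKM (adjusted p = 0.797) and Fcrl1 at 136 ± 4.41 and 145 ± 17.4 FPKM (adjusted p = 0.841; SD, n = 3 each). The mean of Siglecg was above those of all 11 in both kinds of B cell. Against PMs, 6 of the 11 were higher in CD11b+ B cells and 4 lower, beside 21.5% and 8.78% of all genes tested.

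**Figure D5:**
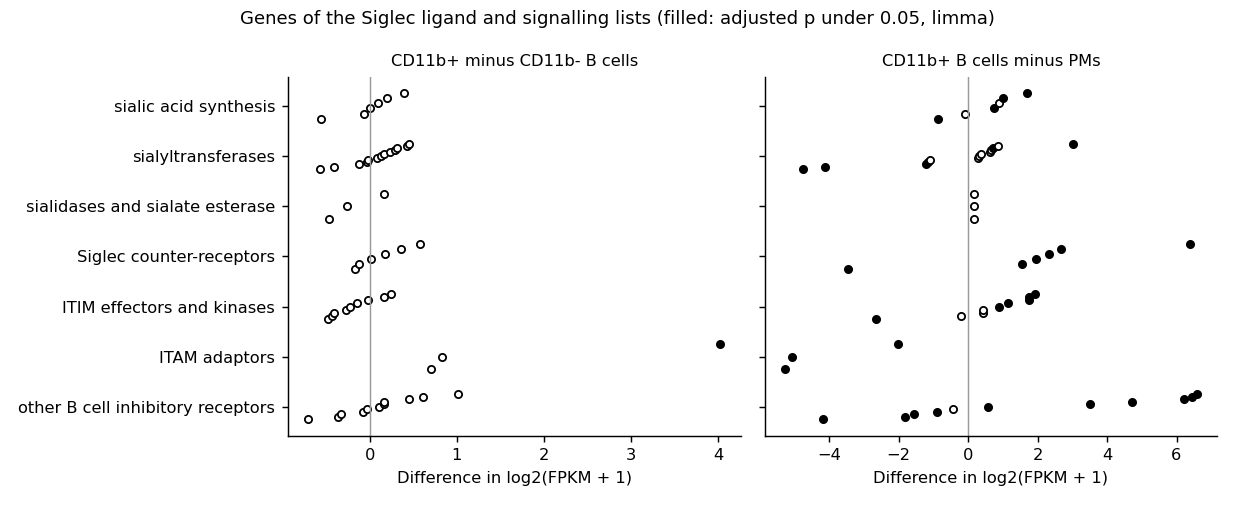
Difference in log2(FPKM + 1) of each tested gene in 7 lists around the Siglecs, for CD11b+ against CD11b- B cells (left) and against PMs (right), with filled points for an adjusted p under 0.05 by limma. Fcer1g, at 4.02, is the filled point on the left.

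Of 3 further Siglec or Siglec-like genes, Mag, which is known from myelin, was at 0.957 ± 0.607 FPKM in PMs and 0.0734 ± 0.115 in CD11b+ B cells (SD, n = 3 each; adjusted p = 0.0520). In CD11b- B cells Mag was called lower than in PMs (-0.91 ± 0.25, adjusted p = 0.0251). Siglec15 was at 0.324, 0.463 and 0.319 FPKM in CD11b+ and at 0.518, 0.471 and 0.756 FPKM in CD11b- B cells, and had no read in PMs. It was called higher than in PMs in CD11b+ (0.45 ± 0.13, adjusted p = 0.0335) and in CD11b- B cells (0.66 ± 0.15, adjusted p = 0.0104) and did not pass between the kinds of B cell (adjusted p = 0.727). Siglecl1 had a mean of 0.0225 FPKM in CD11b- B cells and no read elsewhere.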

How the data were processed

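RNA of 9 libraries, 3 each of CD11b- B cells, CD11b+ B cells and PMs, was analysed, with groups and replicate numbers taken from the sample titles. The authors amplified full-length cDNA (SMART-seq HT), trimmed the read pairs, mapped them with STAR 2.7.2b to GRCm38 and counted reads on genes with featureCounts 1.6.1 (per the labels, which also name GRCm39 without its role). The use of strand in counting was not given in the sources used here. The authors deposited FPKM for 55322 genes. They also deposited a normalized signal, counts divided by a size factor, for 11063 genes, which was used in an alternative only.

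FPKM values times exon length, divided by the step of 1 read, gave whole reads for 100% of values in each library, within 0.05. edgeR with its filter called 42 genes on these reads between the kinds of B cell. Reads from amplified cDNA are not molecules, so counting error is all that intervals and limits of detection (3 reads) cover.

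Comparisons were fitted by limma 3.58.1 (trend, two-sided, Benjamini-Hochberg over all genes tested, threshold 0.05) on log2(FPKM + 1), with 6 libraries each and genes with a mean of at least 0.05 FPKM. The fit was tested on simulated data. Alternatives were pseudocounts of 0.1 and 0.01, other filters, all libraries in 1 fit, a replicate block, median-ratio and quantile scaling, no trend, edgeR 4.0.16, DESeq2 1.42.0 and each library left out. The members and lists were chosen with earlier results of these data known. All members were named, and from each other list the genes called between the kinds of B cell and the 3 with the highest mean FPKM, whereas any other gene was chosen with its values in view. A gene that this rule names is not reported here. Sequences are from RefSeq (GRCm38.p6) and positions from GENCODE M21 by identifier, since only 1462 of 52046 shared identifiers had the same start in the table. The deposited positions are thus mostly not those of GENCODE M21 on GRCm38. Which build they follow was not tested. Of the 50-base windows of the transcripts, 7.84% for Cd22, 4.64% for Siglecg and 1.33% for Siglec1 also occur in other genes, and under 0.5% for the rest. Cd22 overlaps Gm29439 (mean FPKM 0.026) on the other strand.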

Additional observations from a re-analysis of the deposited data

How the results depend on the processing

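The members called against PMs numbered 5 in both comparisons, 4 to 6 over the alternatives for CD11b+ B cells and 5 in all for CD11b- B cells, and no member turned its direction in any of 349 alternative fits of 19 differences. Of these fits, 338 stayed on their side of the threshold. Siglece lost its call in CD11b+ B cells against PMs in 5 (no filter on FPKM, adjusted p = 0.0594, and 4 libraries left out in turn). Siglech was called higher there in 4 (adjusted p = 0.0414 with a pseudocount of 0.01, 0.0232 by edgeR without a filter, 0.0150 by DESeq2 and 0.0324 without CD11b+ library 3). Between CD11b+ and CD11b- B cells, 1 member, Siglece, was called by edgeR without a filter and by DESeq2, and 0 under the other alternatives, also with each library left out (0 to 0). The cause was not tested.

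The number of genes called between CD11b+ and CD11b- B cells depended strongly on the settings. It was 15 in the main test, 37 and 25 with pseudocounts of 0.1 and 0.01, 2 without a filter, 31 with a minimum of 1 FPKM, 36 with all 9 libraries, 9 after quantile normalization, 42 by edgeR, 571 by edgeR without a filter, 392 by DESeq2 and 59 by edgeR on the second table. With a library left out it was 3 to 40, the highest without CD11b+ library 3. Fewer samples enter these last fits.

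Whether the samples are paired is not known, and the main test used no pairing. By title number, the deviations of same-numbered CD11b+ and CD11b- libraries correlated at 0.284, -0.0193 and 0.206. Libraries 1 and 3, at 0.284 and 0.206, also share the number in the sample descriptions. These were the highest correlations between the kinds of B cell. CD11b+ library 2, which shares its description number with no CD11b- library, correlated best with CD11b- library 1 (0.143). A replicate block by title number gave 16 genes and 0 members. A block by the number in the sample descriptions, which leaves 2 pairs, gave 0 genes. Against PMs, the split of 4760 higher and 1940 lower genes for CD11b+ B cells became 2839 and 2622 with median-ratio scaling, 2850 and 2758 by edgeR and 3576 and 3418 by DESeq2. That of 5404 and 2306 for CD11b- B cells became 3415 and 3099 with quantile normalization. The depth limits the members with few reads, such as Siglecf and Siglech with at most 89 over a group.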
